A study of Taeniopygia guttata with 24 samples.

Results

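Of the 18618 genes counted in the telencephalon of the zebra finch (Taeniopygia guttata), 6 had almost no reads just after hatching and were expressed at both late ages in every sample. They were selected on their measured values: at most 10 raw counts in each of the 6 samples at 1 day post hatch (dph), and at least 2 cpm (counts per 1000000 reads of a library counted on genes) in each of the 12 samples at 65 dph and in adults. The low counts at 1 dph and the presence at 65 dph and in adults therefore chose the genes and are given as a description, without a test. The 6 genes were APOH (ENSTGUG00000015769, on the unplaced part of chromosome 18, 18_random), SBK2 (ENSTGUG00000007630, chromosome 2), VT1 (ENSTGUG00000005614, chromosome 1A), ENSTGUG00000011829 (chromosome 7), ENSTGUG00000006340 (chromosome 6) and ENSTGUG00000012248, whose chromosome was not given in the tables used here. The last 3 carry no symbol in the tables used here, and no role is given for them. Of the 5 genes with a chromosome, 0 lay on Z, the sex chromosome of which male birds carry a pair and females a lone copy.

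Telencephalon RNA was sequenced at 1 dph, 20 dph, 65 dph (within 3 days) and in adults, whose age the labels give as above 170 dph and the study's methods as above a lower limit. At each age there were 3 samples of males and 3 of females, 24 in all, and each sample was a pool of 3 birds. No treatment is given in the labels, and all birds came from the same aviary and were assigned to the ages at random within nests. A pool averages its birds, so the spread between samples understates the spread between birds.

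The telencephalon of a songbird holds the forebrain song nuclei. After hatching its neurons mature, form synapses and become wrapped in myelin while the young bird hears song. In the zebra finch young males then practise song, and females do not sing. APOH encodes apolipoprotein H (beta-2-glycoprotein I), a plasma protein that binds negatively charged phospholipids and that mammals make mainly in the liver. SBK2 encodes a predicted serine/threonine protein kinase of the SH3-binding kinase family. That symbol rests on the study's supplementary tables, since RefSeq, of another assembly, has 0 genes of this name.

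Library totals ran from 16680575 to 28772178 reads counted on genes, so that the limit of 10 counts at 1 dph was 0.391 to 0.438 cpm, and 2 cpm at the late ages was 33.4 to 51.2 counts. The telencephalon markers TBR1 and NEUROD6, transcription factors of forebrain excitatory neurons, and SLC17A6, a vesicular glutamate transporter, were present at every age, with means of 197 ± 20.8, 114 ± 4.58, 109 ± 7.8 and 111 ± 8.95 cpm for TBR1, 1015 ± 70.6, 502 ± 41.4, 359 ± 17 and 329 ± 22 cpm for NEUROD6, and 173 ± 24.5, 986 ± 27.5, 944 ± 41.1 and 927 ± 55.3 cpm for SLC17A6 from the youngest to the oldest age (SD, n = 6). Of 26 marker genes of other brain regions, 7 were found, and their summed level was 205 to 284 cpm at 1 dph, 21.9 to 30.3 cpm at 20 dph, 16.9 to 20.9 cpm at 65 dph and 20.8 to 26.5 cpm in adults. Its part in the levels of the 6 genes was not tested. In whole tissue, a change in the number of cells that make an RNA and a change in RNA per cell cannot be told apart.

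The selected APOH entry, on 18_random, was the only one of the 6 genes without a read at 1 dph, and its level was higher at each later age. Another APOH entry, on chromosome 18, had 3 to 12 counts per sample at 1 dph. The selected entry had 0 counts in all 6 samples at 1 dph, which allows up to 3 counts in a library taken singly, or 0.117 to 0.131 cpm. At 20 dph the lowest, median and highest of the 6 samples were 1.22, 1.85 and 2.78 cpm, at 65 dph 3.01, 4.19 and 5.35 cpm, and in adults 4.22, 5.86 and 9.99 cpm. All 6 samples at 65 dph lay above all 6 at 20 dph, whereas the adult and 65 dph samples overlapped. Set against the limit of 3 counts in each library at 1 dph, the mean over 65 dph and adult samples was at least 43.7-fold higher, and the mean at 20 dph at least 15.8-fold higher. With counts pooled over the samples, the 95% interval of the ratio to 1 dph began at 211 for the late ages and 77.7 for 20 dph (exact binomial, counting error only). The pooled ratio is the measure whose interval is given for the other 5 genes. Because the genes were chosen for low counts at 1 dph and for their late level, the selection favours large ratios. These folds and intervals describe the selected values and are not a test.

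SBK2 had a mean level at 20 dph as high as at the late ages. Its counts at 1 dph were 8, 2 and 4 in males and 4, 3 and 6 in females, a mean of 0.186 ± 0.0923 cpm (SD, n = 6). The lowest, median and highest samples were 3.96, 5.2 and 6.67 cpm at 20 dph, 3.3, 4.88 and 5.59 cpm at 65 dph, and 3.89, 4.85 and 5.85 cpm in adults. Samples of the 3 later ages overlapped throughout, and the mean at 20 dph was 113% of the mean over 65 dph and adult samples. The later mean was 25.6-fold that at 1 dph, with a 95% interval of the ratio of pooled counts of 17.5 to 39.1 (exact binomial, counting error only).

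VT1 stood at the count limit itself. Its counts at 1 dph were 10, 4 and 9 in males and 6, 10 and 6 in females, which is a low level rather than none (0.309 ± 0.104 cpm, SD, n = 6). The lowest, median and highest samples were 1.7, 2.37 and 2.95 cpm at 20 dph, 3.59, 3.78 and 5.25 cpm at 65 dph, and 2.79, 4.13 and 4.7 cpm in adults. All 6 samples at 65 dph lay above all 6 at 20 dph, and the adult samples overlapped with both of these ages. Its later mean was 13-fold that at 1 dph (9.67 to 18), and the lowest late sample was 6.48 times the highest at 1 dph.

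Of the 3 genes without a symbol, ENSTGUG00000011829 had 2 to 6 counts in each sample at 1 dph. Its lowest, median and highest samples were 2.31, 3.02 and 3.99 cpm at 20 dph, 3.28, 4.51 and 5.73 cpm at 65 dph, and 3.96, 4.75 and 5.44 cpm in adults, with neighbouring ages overlapping. The later mean was 39.5-fold that at 1 dph (24.3 to 67.3).

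ENSTGUG00000012248 had 3 to 7 counts per sample at 1 dph. At 20 dph its samples were at 1.08, 1.87 and 2.66 cpm (lowest, median and highest), at 65 dph at 2.66, 3.37 and 4.67 cpm, and in adults at 3.53, 5.36 and 6.39 cpm. All adult samples lay above all samples at 20 dph, and the samples at 65 dph overlapped with both. The later mean was 24.9-fold that at 1 dph (16.6 to 38.2).

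ENSTGUG00000006340 had 0 counts in 2 of the 6 samples at 1 dph and at most 6 in the others. Its samples were at 0.809, 2.6 and 3.7 cpm (lowest, median and highest) at 20 dph, 2.09, 3.21 and 5.23 cpm at 65 dph, and 2.75, 4.52 and 5.54 cpm in adults. The value of 0.809 cpm, in female sample 3 at 20 dph, was the lowest that any of the 6 genes had at the later ages. The later mean was 37.1-fold that at 1 dph (21.9 to 65).

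**Figure D1:**
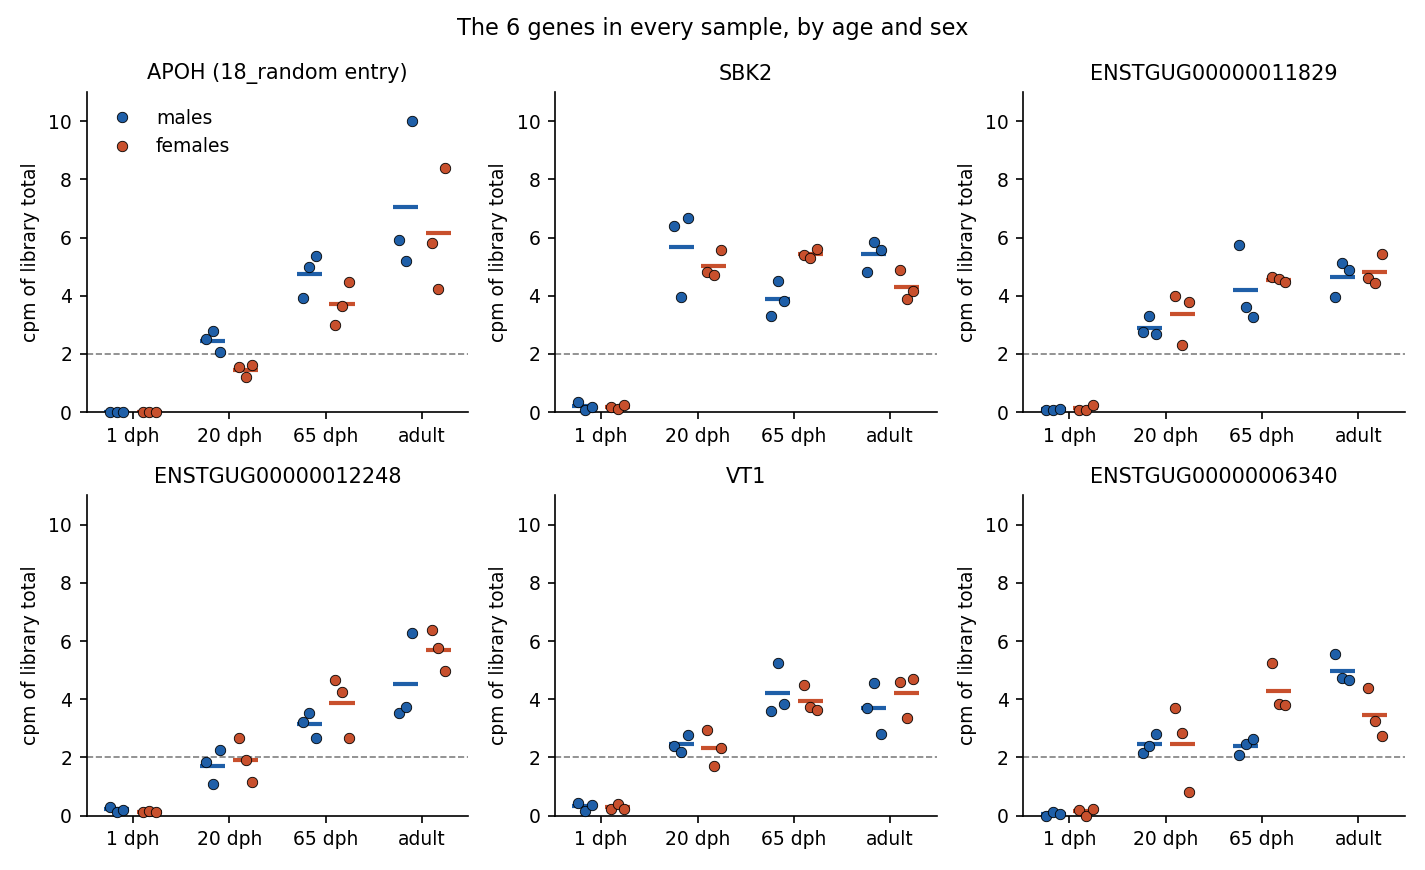
Level of each of the 6 genes in every sample, in cpm of the library total, by age. Each point is a pool of 3 birds, blue for males and orange for females, bars are the means of 3 samples, and the dashed line is the minimum of 2 cpm asked of 65 dph and adult samples. APOH lies at 0 cpm in all 6 samples at 1 dph and reaches 9.99 cpm in adults, while SBK2 is at 3.96 to 6.67 cpm as early as 20 dph.

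The selection used no sample at 20 dph, so these samples show whether the genes had been switched on by then. All 6 genes had more than 10 counts in each of the 6 samples at 20 dph, and 0 genes were still within the limit used at 1 dph. With the late minimum of 2 cpm asked of all 6 samples, 2 genes were on at 20 dph, SBK2 and ENSTGUG00000011829, and 4 were between the limits. VT1 and ENSTGUG00000006340 reached 2 cpm in 5 of 6 samples, APOH in 3 and ENSTGUG00000012248 in 2. With a minimum of 1 cpm, 5 genes were on, all but ENSTGUG00000006340.

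The level at 20 dph relative to the late ages differed among the genes. The mean at 20 dph was 36.1% of the mean over 65 dph and adult samples for APOH, 42.2% for ENSTGUG00000012248, 59.5% for VT1, 64.9% for ENSTGUG00000006340, 68.7% for ENSTGUG00000011829 and 113% for SBK2. The ratio of the mean at 65 dph to that at 20 dph ranged from 0.868 for SBK2 to 2.16 for APOH. For 2 of the 6 genes, APOH and VT1, all 65 dph samples lay above all 20 dph samples, a pattern found in 6.34% of the 13891 genes tested. For 2 of 6, APOH and ENSTGUG00000012248, all adult samples lay above all 20 dph samples, against 14.3% of genes tested. Because a minimum was asked at 65 dph and in adults and none at 20 dph, the selection favours such a direction and nothing is read from these shares.

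The limits decided which genes were counted. Nearest inside the count limit were VT1 with a highest count of 10 at 1 dph, SBK2 with 8 and ENSTGUG00000012248 with 7. Just outside were ENSTGUG00000017425 with 11, and NEU2 (ENSTGUG00000007335), a sialidase gene, and another entry for APOH, both with 12. Nearest inside the late minimum were ENSTGUG00000006340 with a lowest late sample of 2.09 cpm, ENSTGUG00000012248 with 2.66 cpm and VT1 with 2.79 cpm, and just outside were ENSTGUG00000010668 with 1.98 cpm, TMEM125 with 1.76 cpm and ANKRD29 with 1.57 cpm.

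A further 16 genes met the late minimum with a highest count of 11 to 20 at 1 dph, 12 of them with a symbol. HAPLN4, which encodes a link protein of the hyaluronan matrix around neurons, had means of 0.299 cpm at 1 dph, 6.78 cpm at 20 dph, 14.6 cpm at 65 dph and 21.9 cpm in adults. GJB1, the gap junction protein connexin 32 of myelinating cells, had 0.52, 1.91, 3.33 and 4.28 cpm at the same ages, and SLC30A3, which loads zinc into synaptic vesicles, had 0.609, 9.28, 7.77 and 6.33 cpm. These 3 are examples, and no theme is read from them. The other 9 with a symbol follow, with means in cpm at 1 dph and in adults: SH3RF2 (0.491 and 12.1), AGMO (0.353 and 7.1), TMEM88 (0.47 and 4.21), the other APOH entry (0.349 and 97.3), HOPX (0.447 and 7.01), NEU2 (0.275 and 3.68), COCH (0.426 and 8.4), G0S2 (0.567 and 2.79) and WNT1 (0.637 and 4.66). Another 11 genes were within the count limit with a lowest late sample between 1 and 2 cpm, 6 of them with a symbol: THRB, the thyroid hormone receptor beta, AGPAT1, TMEM125, ANKRD29, DPT and CPLX4.

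**Figure D2:**
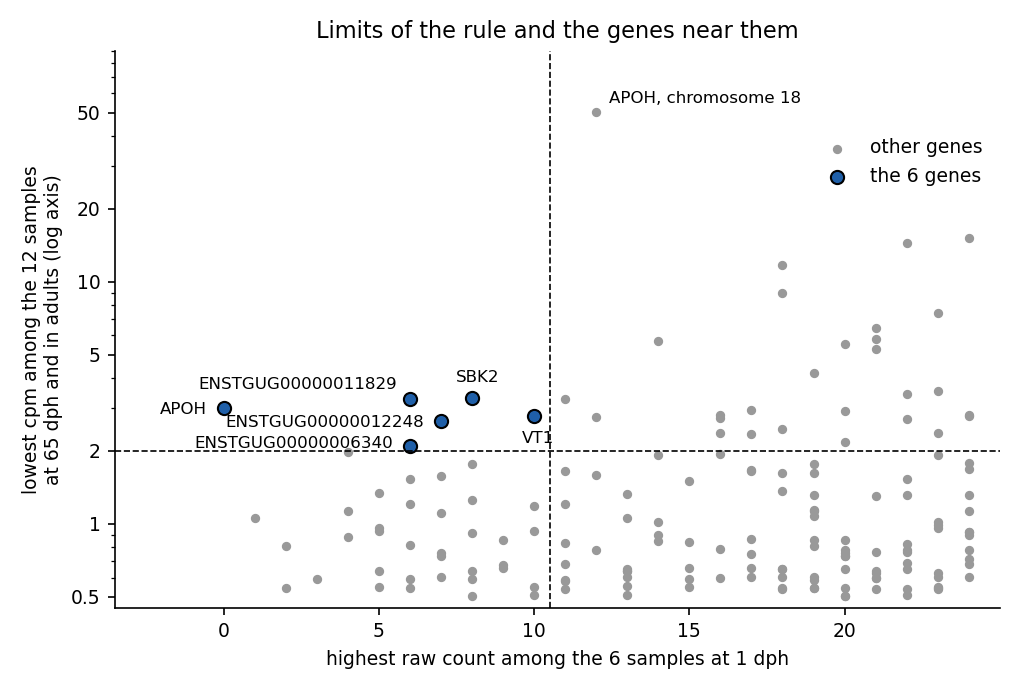
Highest raw count among the 6 samples at 1 dph against the lowest cpm among the 12 samples at 65 dph and in adults (log axis), 1 point per gene, for genes with at most 24 counts and at least 0.5 cpm. Dashed lines are the limits of the selection, and the 6 genes, in blue, lie between 0 and 10 counts and between 2.09 and 3.3 cpm, with the APOH entry on chromosome 18 just outside at 12 counts and 50.4 cpm.

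APOH has a pair of entries in the gene table used for counting, and the selected one holds the smaller part of the reads. The other, ENSTGUG00000004239 on chromosome 18, had 8, 8 and 3 counts in males and 12, 8 and 12 in females at 1 dph, and means of 0.349 ± 0.131, 31.8 ± 9.29, 70.7 ± 12.7 and 97.3 ± 24 cpm (SD, n = 6) from the youngest to the oldest age. Its mean over 65 dph and adult samples was 241-fold that at 1 dph (181 to 320). With reads pooled over samples, the 18_random entry took 5.74% of the reads of both entries at 20 dph (95% exact binomial interval 5.11 to 6.42%), 5.63% at 65 dph (5.18 to 6.1%) and 6.38% in adults (5.95 to 6.83%). These intervals cover counting error only and leave out the spread between samples. The means of the shares per sample were 5.85 ± 1.45%, 5.64 ± 0.347% and 6.45 ± 2.08% at these ages (SD, n = 6), and no difference between ages is read from them. Across the 18 later samples the share ran from 4.44% to 10.5%, the highest being that of male adult sample 3, which also had the highest level of the selected entry (9.99 cpm). The next highest adult share was 6.49%, in male adult sample 1.

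The absence of reads on the 18_random entry at 1 dph therefore rests on few APOH reads. At 1 dph the 2 entries together had 51 reads, 0 of them on 18_random. This allows a share of up to 5.88% by a limit of 3 counts over the pooled reads and up to 6.98% by the exact binomial interval. The share over the later samples, 5.98%, lies between these bounds and would give 3.05 of 51 reads on the 18_random entry, so that these reads do not settle whether the share differed at 1 dph. How reads that fit both entries were assigned is not stated, and the level of each entry is uncertain to that extent. RefSeq, of another assembly, has 1 gene named APOH, on chromosome 18. Whether the 18_random entry is a gene of its own was not tested. Its 0 counts at 1 dph are therefore those of an entry, not of APOH, which had the 51 reads above.

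**Figure D3:**
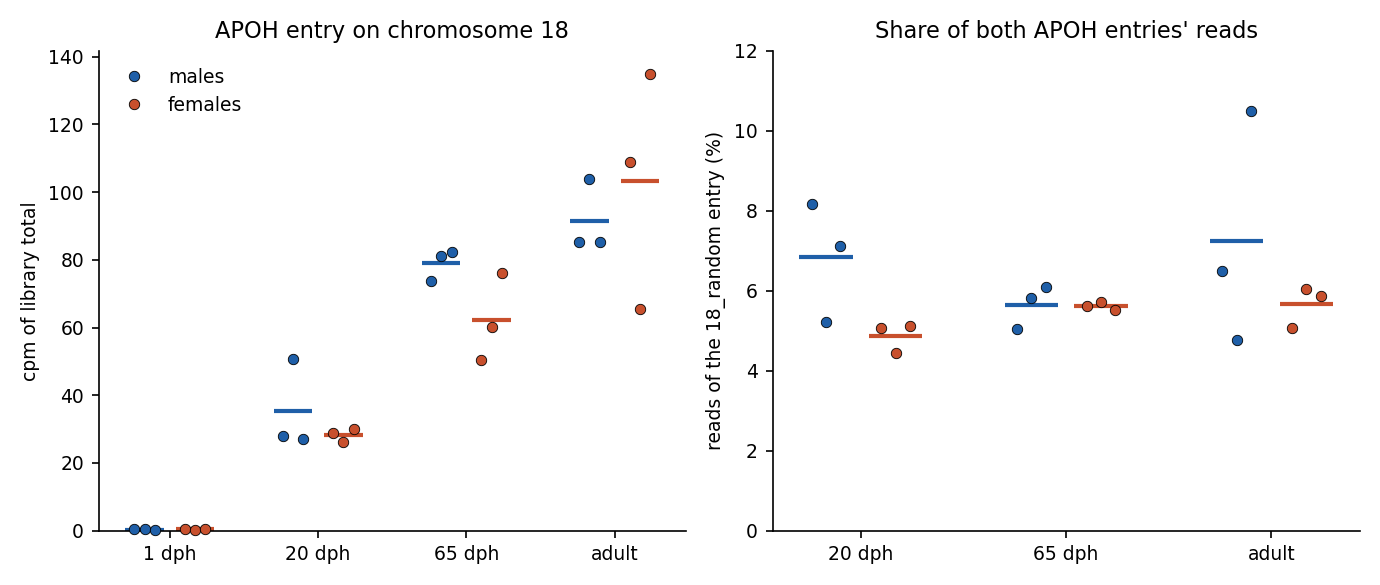
Left, level of the APOH entry on chromosome 18 in every sample (cpm of the library total) by age. Right, the 18_random entry's share of the reads of both APOH entries in each later sample (%). Points are pools of 3 birds, blue for males and orange for females, and bars are means of 3 samples. Levels on the left are 0.124 to 0.49 cpm at 1 dph and 65.5 to 135 cpm in adults, and shares on the right lie between 4.44% and 10.5%.

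Haemoglobin genes moved in the same direction with age as APOH. In a list of 23 genes of blood cells and plasma proteins, which includes APOH, 3 were found by symbol, and the 2 haemoglobin genes among them, HBAA and HBE1, were both higher after 1 dph (mean of 20 dph, 65 dph and adults minus 1 dph). The log2 fold changes were 2.16 (SE 0.165, adjusted p = 2.65e-11) for HBAA and 1.43 (SE 0.179, adjusted p = 1.34e-07) for HBE1 by edgeR's quasi-likelihood test with Benjamini-Hochberg adjustment, in a contrast in which 39.2% of genes tested were called higher and 41.4% lower. Summed HBAA and HBE1 was 86.1 to 294 cpm at 1 dph, 492 to 621 cpm at 20 dph, 469 to 727 cpm at 65 dph and 524 to 950 cpm in adults. The sample highest for the 18_random entry at each age ranked 3 of 6 in summed haemoglobin at 20 dph (male sample 2), 5 of 6 at 65 dph (male sample 3, 493 cpm) and 6 of 6 in adults (male sample 3, 524 cpm). For the entry on chromosome 18 the same samples were highest at 20 dph and 65 dph, but in adults it was female sample 3 (135 cpm), which ranked 3 of 6 in haemoglobin (761 cpm), and male sample 3 was at 85.2 cpm. The part of blood in the APOH level was not tested.

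Of 19 genes of vessels, pericytes and meninges, 8 were found by symbol, with 9 entries, of which 8 were called lower and 1 (SLC2A1, the glucose transporter of the blood-brain barrier) higher in the same contrast. Their summed level was 309 to 368 cpm at 1 dph, 163 to 198 cpm at 20 dph, 136 to 155 cpm at 65 dph and 132 to 149 cpm in adults. Of 43 genes of myelin and oligodendrocytes, 17 were found, and all 17 were called higher, as were 21 of 22 found genes of synapses, 20 of 21 voltage-gated channel genes, 14 of 15 genes of monoamine and acetylcholine signalling (13 without TMM scaling, where 1 gene of the list changes sign) and 5 of 6 astrocyte genes. Other lists were mixed or lower. Of 10 found genes of the perineuronal matrix and fast-spiking interneurons, 7 were called higher and 3 lower. The same counts held for 10 found genes of neuropeptides and their receptors. Of 4 found choroid plexus and ependyma genes, 3 were called higher (2 without TMM scaling) and 1 lower. KL, counted as higher, had means of 15, 20.6, 14.1 and 12.8 cpm from the youngest to the oldest age. OTX2, which the study reports as lower with age, is in this list but was not found by symbol. All 7 found genes of other brain regions were called lower. A gene was found only if the study's supplementary tables gave its symbol, as they did for 3505 genes. Some of these tables list genes by their change with age in the same samples. Being found thus favoured being called, and nothing is read from these counts or from those of the blood list. None of the 6 selected genes is in the myelin list, and APOH is in the blood list. Of the genes near the limits, TMEM125 and GJB1 are in the myelin list. HAPLN4 is in the perineuronal list and the other APOH entry in the blood list. Nothing is read from these memberships.

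Between 65 dph and adulthood, the difference had no part in the choice of genes beyond the same minimum at both ages. APOH was called higher in adults than at 65 dph, and the other 5 genes were not called. In adults APOH was at 5.92, 5.21 and 9.99 cpm in males and 5.8, 4.22 and 8.4 cpm in females, against 3.93, 5 and 5.35 cpm in males and 3.01, 3.66 and 4.46 cpm in females at 65 dph. The adult samples were mostly above those at 65 dph, with 2 samples, female 2 and male 2, within the range of the younger age. The log2 fold change was 0.61 (SE 0.192, 95% interval 0.212 to 1.02, adjusted p = 0.0285), a 1.53-fold difference (edgeR quasi-likelihood test, Benjamini-Hochberg over 13891 genes). Of all genes tested, 10.5% were called higher in adults and 10.7% lower, so that 1 of 6 is near the background.

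The call for APOH depended on single libraries and on both sexes together. It was lost without male adult sample 3 (log2 fold change 0.441, adjusted p = 0.1), without female adult sample 3 (0.463, adjusted p = 0.0906), and without female sample 1 (0.546, adjusted p = 0.0637), female sample 2 (0.611, adjusted p = 0.0523) or male sample 1 (0.548, adjusted p = 0.0717) at 65 dph, in the same edgeR test. Within males alone the log2 fold change was 0.532 (adjusted p = 0.248), and within females alone 0.697 (adjusted p = 0.108). Over all 19 alternatives run the log2 fold change stayed positive (0.441 to 0.72), with adjusted p between 0.0131 and 0.248 by edgeR or DESeq2, and 12 kept the call. The APOH entry on chromosome 18 was also called higher in adults, with means of 97.3 cpm in adults and 70.7 cpm at 65 dph and a log2 fold change of 0.436 (SE 0.151, adjusted p = 0.0426, edgeR). Since the assignment of reads that fit both entries is not stated, this is not taken as a second, independent measurement.

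ENSTGUG00000012248 had the next largest difference. It was at 3.53, 3.74 and 6.27 cpm in adult males and 6.39, 5.76 and 4.97 cpm in adult females, against 3.22, 3.52 and 2.67 cpm in males and 4.67, 4.26 and 2.66 cpm in females at 65 dph. The log2 fold change of 0.515 (SE 0.201, 95% interval 0.0973 to 0.932) missed the threshold in edgeR's test (adjusted p = 0.0719). The other 4 genes had log2 fold changes of 0.34 for ENSTGUG00000006340 (95% interval -0.208 to 0.888), 0.0866 for ENSTGUG00000011829 (-0.24 to 0.413), 0.0436 for SBK2 (-0.26 to 0.347) and -0.0846 for VT1 (-0.434 to 0.265). None of these 4 passed the threshold, and the widest interval was that of ENSTGUG00000006340. Adult and 65 dph samples overlapped for all 6 genes, as for all but 9.41% of genes tested.

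Males and females were compared at each later age. By edgeR's quasi-likelihood test with Benjamini-Hochberg adjustment, 0 of the 6 genes were called at 20 dph, at 65 dph or in adults, where 2.71%, 3.26% and 0.0432% of all genes tested were called in either direction. At 65 dph and in adults the selection had asked at least 2 cpm of every sample of both sexes. Genes under that level in a late sample of either sex had been left out, which limits what 0 calls can show at these ages. The samples at 20 dph had no part in the selection. At an unadjusted p under 0.05 1 gene passed at 20 dph, 2 genes at 65 dph and 0 among adult birds, against 9.3%, 8.88% and 4.66% of all genes tested. These shares, and those of the sex comparisons below, include genes on Z. At each age, most genes that differed by sex in the study lay on Z. Shares over genes off Z were not computed. The likelihood ratio test of edgeR, DESeq2 and a stage-wise procedure modelled on the study's also called 0 of the 6 at each age. Of the 13891 genes tested, the likelihood ratio test called 423 at 20 dph, 500 at 65 dph and 18 in adults. DESeq2 called 417, 497 and 16 at the same ages, and the stage-wise procedure 618, 676 and 299.

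At 20 dph the gene with the lowest p was APOH, at 2.5, 2.78 and 2.08 cpm in males and 1.54, 1.22 and 1.62 cpm in females. Male and female samples did not overlap, which held for 1 of the 6 genes and for 16.5% of genes tested at that age. The log2 fold change was 0.751 (SE 0.303, 95% interval 0.116 to 1.39, adjusted p = 0.396 in edgeR). For APOH on chromosome 18 it was 0.324 (SE 0.222, adjusted p = 0.695 in edgeR).

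At 65 dph SBK2 was at 3.3, 4.49 and 3.83 cpm in males and 5.41, 5.28 and 5.59 cpm in females, and ENSTGUG00000006340 was at 2.09, 2.46 and 2.62 cpm in males and 5.23, 3.84 and 3.79 cpm in females. In both genes all male samples were below all female samples, which held for 2 of the 6 genes and for 14.1% of genes tested in either direction. The log2 fold changes, male minus female, were -0.478 for SBK2 (SE 0.207, adjusted p = 0.437) and -0.836 for ENSTGUG00000006340 (SE 0.377, adjusted p = 0.484) in edgeR.

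In adults the fitted direction was the other way for both genes, which were called at neither age. Of the 13891 genes tested, 6 were called by sex in adults, against 453 at 65 dph. SBK2 was at 4.83, 5.85 and 5.58 cpm in males and 4.88, 3.89 and 4.17 cpm in females (log2 fold change 0.33, SE 0.208, adjusted p = 1 in edgeR). ENSTGUG00000006340 was at 5.54, 4.72 and 4.65 cpm in males and 4.39, 3.24 and 2.75 cpm in females (0.523, SE 0.371, adjusted p = 1 in edgeR). Male samples lay above all female samples for ENSTGUG00000006340, 1 of the 6 genes against 8.12% of genes tested, and overlapped with them for SBK2.

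The sex difference in adults minus that at 65 dph was tested after these values had been seen. It was 0.808 on the log2 scale for SBK2 (SE 0.293, 95% interval 0.2 to 1.42, adjusted p = 0.358) and 1.36 for ENSTGUG00000006340 (SE 0.529, 95% interval 0.262 to 2.46, adjusted p = 0.453) in edgeR. Of the 6 genes 0 were called by edgeR's quasi-likelihood test, by its likelihood ratio test or by DESeq2. The first called 0.936% of all genes, the second 217 genes and the third 221. At an unadjusted p under 0.05 in edgeR's quasi-likelihood test, 2 of the 6 genes passed, against 7.17% of all genes. The change of the sex difference between these ages is thus not shown for either gene.

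**Figure D4:**
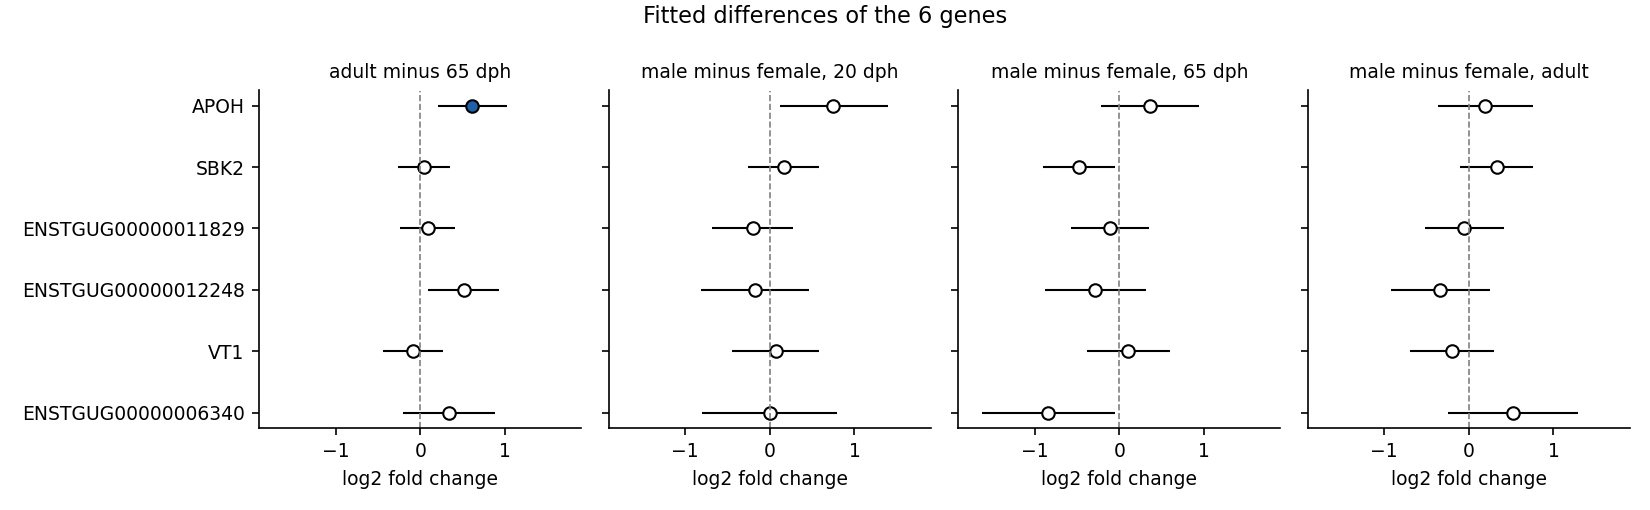
Log2 fold changes of the 6 genes fitted by edgeR (points) with 95% intervals (lines), for adults minus 65 dph and for males minus females at each later age. The filled point passed the adjusted threshold of 0.05 and open points did not. The filled point is APOH in adults minus 65 dph, at 0.61, and the interval of ENSTGUG00000006340 at 65 dph runs from -1.62 to -0.0532.

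The genes differed in the spread between samples. The coefficient of variation over the 6 samples of an age ran from 11% (ENSTGUG00000011829 in adults) to 39.2% (ENSTGUG00000006340 at 20 dph), where counting error alone would give 10.5% and 13%. The biological coefficient of variation fitted by edgeR was 0.275 for ENSTGUG00000006340, 0.239 for ENSTGUG00000012248 and 0.226 for APOH, 0.176 for VT1, 0.169 for ENSTGUG00000011829 and 0.146 for SBK2, against a common value of 0.111 over all genes. The common value spans genes of all levels and is not matched to the low level of these 6, so nothing is read from the difference. In 0 of the 18 groups of 6 samples, 1 for each gene and later age, did the highest or lowest sample stand apart by Dixon's criterion. At 65 dph and in adults the selection had left out genes with a sample under 2 cpm, which made a far low sample less likely. The criterion was applied to levels only, not to the APOH shares, and nothing is read from this count.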

How the data were processed

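The authors sequenced pooled telencephalon RNA (single-end 75 bp, stranded mRNA libraries), aligned reads to the Ensembl assembly taeGut3.2.4 with STAR 2.5.2b and counted them per gene with htseq-count (HTSeq 0.6.0). The deposited values are raw counts per gene, with no normalization. Sex and age of each sample come from the labels, and 0 columns were left without a sample. Symbols and chromosomes come from the study's supplementary tables, which gave a symbol for 3505 genes.

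The genes, gene lists and tests were chosen with earlier results of these data known. Of the genes, those with a symbol or among the 3 highest in mean cpm were to be named. The other 2 are named because the group is small, after their values were seen.

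Cpm in the text use library totals. The tests used edgeR 4.0.16 (R 4.3.3): TMM factors, a filter of 1 cpm or more in 3 samples or more, 8 group means over 24 samples, the quasi-likelihood test, and Benjamini-Hochberg adjustment over all genes per contrast at 0.05. TMM factors were 1.12 to 1.15 at 1 dph and 0.934 to 0.975 later, so that folds against 1 dph differ by scaling: the median age effect over all genes was -0.0228 on the log2 scale with TMM and -0.272 without. The scripts were tested on simulated data. DESeq2 1.42.0 and a stage-wise procedure modelled on the study's were alternatives, the latter because its first step includes the age effect on which the genes were chosen. It used quasi-likelihood p-values with Holm adjustment across its contrasts, so its calls need not be those of the study. Python 3.11.15 with pandas 2.3.3, numpy 2.4.6, scipy 1.17.1 and matplotlib 3.10.9 gave counts, intervals and figures. Intervals and limits from counts cover counting error only, since reads carry no molecular identifiers. A promoter or protein sequence is not shown. RefSeq, of another assembly, was used to look up symbols and chromosomes only, and its coordinates were not used. Part of the marker check is not reported here.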

Additional observations from a re-analysis of the deposited data

Results flagged for a closer look

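The fitted sex difference of ENSTGUG00000006340 had opposite directions at the 2 late ages and was called at neither. All 3 male samples lay above all 3 female samples in adults and below them at 65 dph. Male and female samples did not overlap, in either direction, for 8.12% of genes tested in adults and 14.1% at 65 dph. The share of genes that changed sides between these ages was not computed. The sex difference in adults minus that at 65 dph was 1.36 on the log2 scale (adjusted p = 0.453 by edgeR's quasi-likelihood test), which did not pass the threshold.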

How the results depend on the processing

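The number of genes selected depended on both limits: it was 1 with at most 5 counts at 1 dph, 22 with at most 20, 17 with a late minimum of 1 cpm and 0 with 5 cpm. With cpm after TMM it was 7, and 6 to 8 with 1 sample left out, and in these cases all 6 genes were kept. Of the 6, those on at 20 dph numbered 5 with a minimum of 1 cpm and 0 with 5 cpm, 2 after TMM, and 2 to 3 with 1 sample left out.

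In adults minus 65 dph, 1 of the 6 genes was called, 0 in females only, 0 in males only, and 0 to 1 with 1 sample left out, where the log2 fold change of APOH was 0.441 to 0.72. Of the 13891 genes tested, 2948 were called with all samples, 1623 in females only and 1050 in males only. With 1 sample left out, 2286 to 3004 genes were called over all. The calls for the 6 genes were unchanged under DESeq2 size factors, edgeR's likelihood ratio test, DESeq2, no filter and a fit of these ages only. Over all genes, these settings called 2744 to 3241. In the 3 sex comparisons and the change of the sex difference, 0 of the 6 genes were called under every alternative run, each sample left out included. Over all genes, these alternatives called 327 to 618 at 20 dph, 350 to 676 at 65 dph and 3 to 299 in adults. For the change of the sex difference they called 0 to 245.

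Signs turned only where no call was made. In females only, the log2 fold change in adults minus 65 dph was -0.34 for ENSTGUG00000006340, -0.36 for SBK2 and 0.0685 for VT1. With 1 sample left out, it was -0.0144 to 0.108 for SBK2 and -0.175 to 0.0136 for VT1. The sex difference at 20 dph was -0.41 to 0.423 for ENSTGUG00000006340, -0.428 to 0.134 for ENSTGUG00000012248 and -0.109 to 0.275 for VT1. At 65 dph it was -0.381 to 0.0346 for ENSTGUG00000011829 and -0.0876 to 0.226 for VT1, and in adults -0.15 to 0.499 for APOH and -0.124 to 0.0495 for ENSTGUG00000011829. Its change between these ages was -0.512 to 0.137 for APOH, -0.0946 to 0.328 for ENSTGUG00000011829 and -0.372 to 0.164 for ENSTGUG00000012248. The cause was not tested. The alternatives of this last comparison were chosen after seeing the data. The 3 listed blood genes were called higher with age under TMM, under DESeq2 size factors and without TMM, and the counts given for the vessel and myelin lists were the same under all 3.

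No paired analysis was possible because samples of different groups share no number. Counts of 18 to 204 per later sample limit the precision of each gene.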
